A study of Homo sapiens with 19 samples.

Results

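The entries described here are 8 mature names of the miRNA catalogue, grouped as lying on, or resembling, the ribosomal RNA (rRNA) gene units: hsa-miR-10396a-5p, hsa-miR-10396b-5p, hsa-miR-10396a-3p, hsa-miR-10396b-3p, hsa-miR-663a, hsa-miR-663b, hsa-miR-3648 and hsa-miR-3687, written below without the prefix for human. They were counted in small RNA of Caco-2, a widely used line of human colorectal epithelium, and of its culture medium. The 8 were taken by name, as a group put together with earlier results of these data known. Of the 1043 miRNA names with a count in these data, 7 are among the 8, and the eighth, miR-3687, had no count in any library. The medium of wild-type cells near 80% confluence, kept for 24 h without serum and antibiotics, gave total extracellular RNA (total exRNA, 4 libraries), a pellet spun down at 40000 xg (P40, 4), a pellet spun down at 100000 xg (P100, 4) and what stayed in solution at that speed (S100, 4 libraries, 3 used), and the cells gave the lysate (3). Total exRNA and S100 went through a precipitation step ahead of Trizol that P40, P100 and the lysate did not, so fraction and RNA preparation cannot be told apart where total exRNA or S100 is set against P40, P100 or lysate.

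Human rRNA is transcribed by RNA polymerase I from repeated gene units as a long 45S precursor, in which an external transcribed spacer precedes the 18S rRNA and is cut away during maturation. Some names in the miRNA catalogues point into this precursor or to sequence that resembles it, and a small RNA library also holds short pieces of rRNA and its spacers. The counts give a name and a number of reads, so a processed miRNA and a fragment of precursor rRNA cannot be told apart in them. Pelleting by ultracentrifugation collects vesicles and other dense particles from conditioned medium, and the supernatant keeps smaller, non-pelleted carriers of RNA.

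The mature sequences show which entries could exchange reads and which share a seed, the bases 2 to 8 that pair with target mRNAs. 7 of the 8 names matched a RefSeq sequence (GRCh38.p14), and in each line the seed is in capitals.
miR-10396a-5p: gGCGGGGCucggagccggg
miR-10396b-5p: cGGCGGGGcucggagccggg
miR-10396a-3p: gGCCCCGGgcccucgaccggg
miR-10396b-3p: gGCCCCGGgcccucgaccggac
miR-663a: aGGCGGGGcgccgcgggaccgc
miR-663b: gGUGGCCCggccgugccugagg
miR-3648: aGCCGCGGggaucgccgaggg

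miR-10396a-5p is miR-10396b-5p without its first base, a shared run of 19 bases that shifts the seed by 1 base. The 3p entries share their first 20 bases and their seed. Reads of the a and b copies could therefore have been split between them, and single values of the copies are uncertain in that respect. miR-10396b-5p and miR-663a share the seed GGCGGGG inside a common run of 8 bases and differ beyond it. miR-1908-5p, a name on chr11 with the same seed, had 11 counts in total exRNA, 0 in P40, 1 in P100, 115 in S100 and 32 in lysate. miR-663a and miR-663b, in spite of their names, share no seed, and their longest common run is 4 bases.

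The hairpins show how the arms of miR-10396 sit next to each other, with the mature arms in capitals and the loop in lower case.
MIR10396B: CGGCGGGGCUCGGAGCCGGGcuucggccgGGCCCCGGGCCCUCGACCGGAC
MIR10396A: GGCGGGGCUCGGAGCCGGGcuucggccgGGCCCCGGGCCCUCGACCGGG

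MIR10396B (chr21:8436324-8436374, plus strand) starts at base 3103 of the annotated 45S gene RNA45SN1 and ends 502 bases before RNA18SN1. MIR3648-1 (chr21:8208473-8208652) starts at base 2486 of RNA45SN2 and ends 979 bases before RNA18SN2. Both lie in the external transcribed spacer. MIR10396A (chr21:8987617-8987665) and the second copy MIR3648-2 (chr21:8986999-8987178) are outside any annotated 45S gene. Their starts are 618 bases apart. Between MIR3648-1 and MIR10396B the distance is 617 bases when each is counted from the start of its own unit. That value depends on the starting point, since the units differ in length (RNA45SN2 13315 bases, RNA45SN1 13351 bases). Counted back from the start of the rRNA gene that follows each hairpin, the distance is smaller. Whether MIR10396A and MIR3648-2 lie in a copy of the unit was not tested. MIR663A (chr20:26208186-26208278) lies in its host gene MIR663AHG and MIR663B (chr2:132256966-132257080) lies inside ANKRD30BL and LOC107985804. Whether miR-663a and miR-663b resemble the sequence of the 45S precursor was not tested. The mature entries are 19 to 22 bases long and hold 81.0% to 90.9% G+C (median 89.5%), while the other tested miRNAs with a RefSeq sequence had a median of 50.0%.

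**Figure D1:**
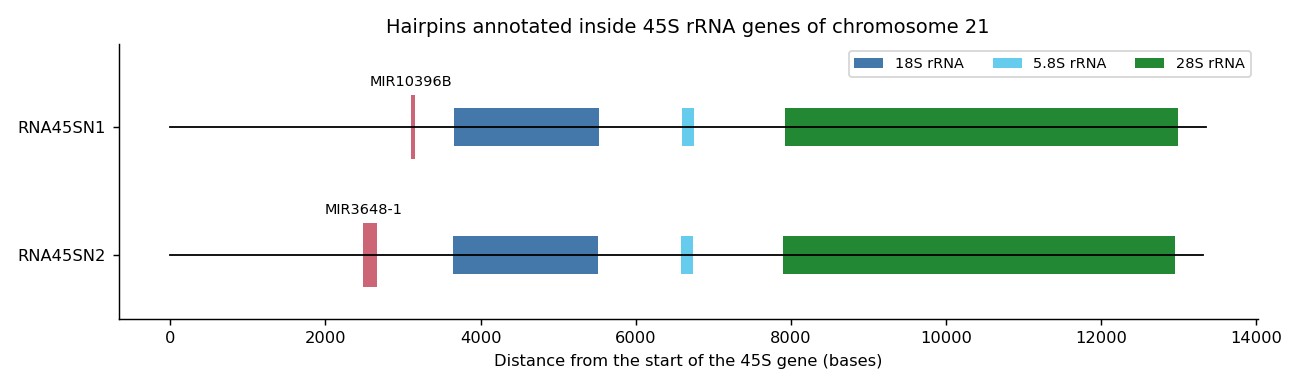
Places of MIR10396B and MIR3648-1 in the annotated 45S rRNA genes RNA45SN1 and RNA45SN2. The x axis is the distance in bases from the start of the 45S gene, coloured boxes are the mature rRNAs, and both hairpins lie before the 18S rRNA, starting at bases 3103 and 2486.

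The libraries used held 10017 to 225290 counts: total exRNA 34427 to 61622, P40 10490 to 26096, P100 10017 to 27027, S100 198878 to 225290 and lysate 37453 to 157051. S100 replicate 1 held 48 counts and is left out of all results; 1 of these was miR-10396a-3p and 1 was miR-663a. Whether replicates were separate cultures is not labelled, and the p-values therefore measure the spread between these libraries only. Every P40 library correlated with another group at least as well as with the rest of P40 over all tested miRNAs (mean Spearman's rho 0.800 to 0.831 within P40, against 0.801 to 0.846 with total exRNA or P100), and total exRNA replicate 2 stood closest to its own group by little (0.837, against 0.828 with P40). All 7 epithelial and gut marker miRNAs were detected in every group. Of 8 serum and blood miRNAs, 7 were detected in total exRNA at a summed 1.88% to 2.29% of counts, 6 in P40 at 1.52% to 2.11%, 6 in P100 at 1.04% to 1.87%, 6 in S100 at 0.312% to 0.439% and 6 in lysate at 0.571% to 1.33%, with miR-451a and miR-223-3p at 0 in lysate, miR-142-5p at 0 in all 4 extracellular groups, miR-142-3p at 0 in P40 and P100, and miR-150-5p at 0 in S100. As 6 of these names were also counted in lysate, the sums cannot be read as serum or blood RNA alone. The part of serum or blood RNA in the results below was not tested.

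The 7 listed entries with counts together took a far larger share of the miRNA counts outside the cells than inside them. They made up 3.11% ± 2.33 of the counts in total exRNA (SD, n = 4), 1.19% ± 0.271 in P40 (n = 4), 3.87% ± 1.35 in P100 (n = 4), 0.436% ± 0.146 in S100 (n = 3) and 0.0327% ± 0.0160 in lysate (n = 3). The lowest extracellular library, an S100 library at 0.304%, was 5.97 times the highest lysate library at 0.0509%. Within total exRNA the share ran between 1.00% in replicate 2 and 6.32% in replicate 4, so this group varied most. miR-663a, whose hairpin lies outside any annotated 45S gene, held 40.7% of these pooled counts in total exRNA, 34.2% in P40, 37.8% in P100, 44.3% in S100 and 32.4% in lysate. Single libraries ran from 13.4% in replicate 2 to 60.8% in replicate 4 of total exRNA. In lysate they ran from 12.5% in replicate 1 to 36.25% in replicate 2. These are shares of miRNA counts, and a higher share does not say whether more of the entry or less of the other miRNAs was present.

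All 7 listed entries passed the filter on low counts and were tested by the quasi-likelihood F test of edgeR, with p adjusted after Benjamini and Hochberg over the 227 tested miRNAs. Levels below are TMM-scaled CPM, that is, counts relative to the scaled library total, and a call needs an adjusted p below 0.05. Against lysate, 7 of the 8 entries were called higher in total exRNA, 6 in P40, 7 in P100 and 6 in S100. Over all tested miRNAs, 18.9% were called higher in total exRNA, 13.7% in P40, 16.7% in P100 and 32.2% in S100 against the same lysate libraries. Every library lay above every lysate library for 7 entries in total exRNA, P40 and P100 and for 5 in S100, where 19.4%, 12.8%, 18.9% and 35.7% of all tested miRNAs did so. The 4 comparisons share these lysate libraries. The median log2 fold change of the 7 tested entries was 6.44 in total exRNA, 4.89 in P40, 7.01 in P100 and 3.95 in S100, against medians over all tested miRNAs of 0.0050, 0.061, -0.096 and -0.040. With miR-663b, which had no lysate count, set at its bound, the members' medians in P100 and S100 were 6.67 and 3.92.

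**Figure D2:**
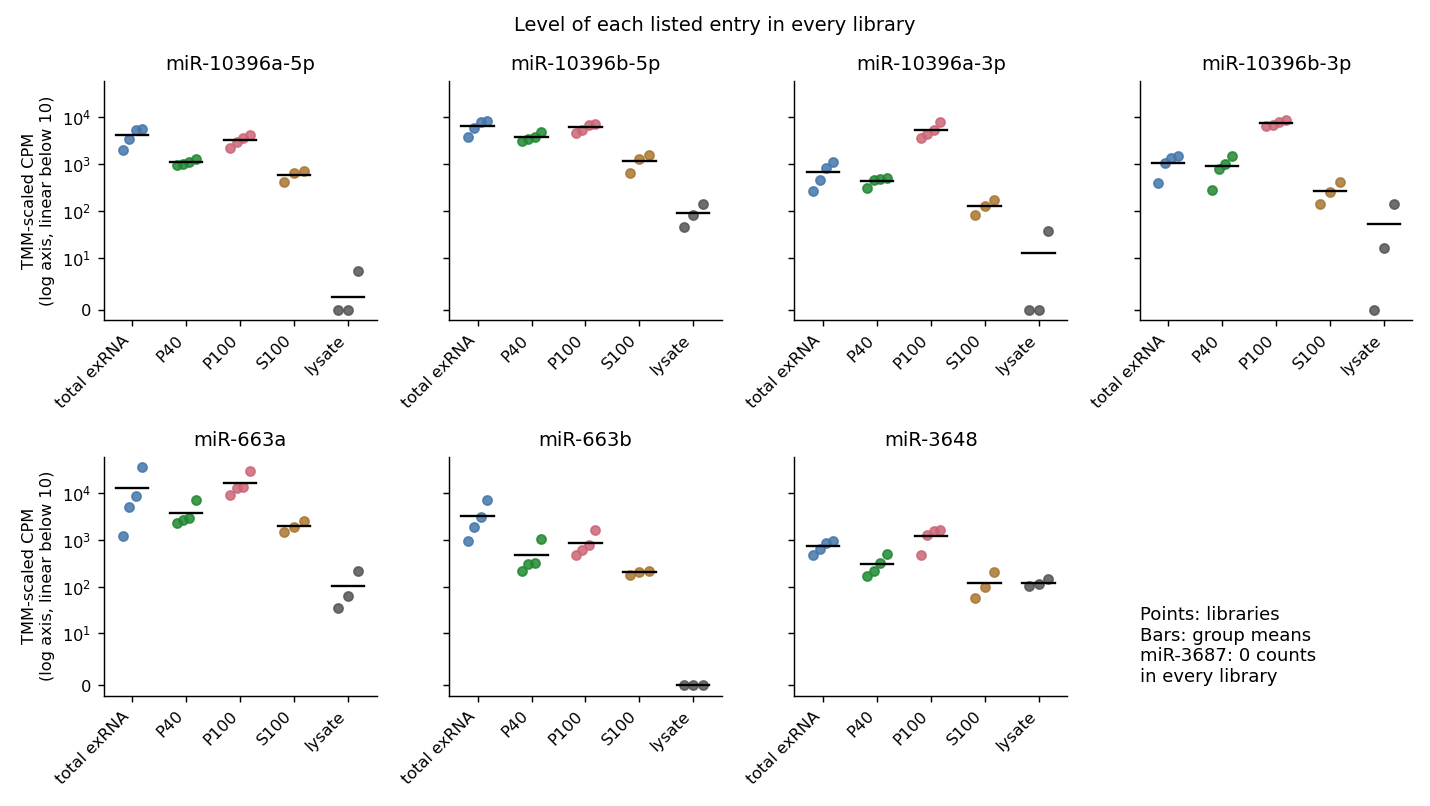
Level of each entry in every library used, as TMM-scaled CPM on a log axis that is linear below 10; points are libraries, bars are group means, and lysate is at the right of each panel. All extracellular libraries lie above all lysate libraries for miR-10396a-5p, miR-10396b-5p, miR-10396a-3p, miR-663a and miR-663b, while S100 and lysate overlap for miR-10396b-3p and miR-3648.

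The 5p arms of miR-10396 were called higher than in lysate in all 4 extracellular groups. miR-10396b-5p stood at 6077, 3818, 8535 and 8136 CPM in total exRNA, 3510.4, 3869.7, 4841 and 3163 CPM in P40, 5512, 7403, 6874 and 4667 CPM in P100, 647, 1298 and 1594 CPM in S100, and 139.6, 44.4 and 80.5 CPM in lysate. Total exRNA and P100 overlapped at the top, and P40, lower in its mean, reached into the range of both. S100 followed, and the lysate libraries lay below all others. The log2 fold change over lysate was 6.44 ± 0.51 (SE) in total exRNA with edgeR's adjusted p = 8.55e-10, 5.66 ± 0.50 in P40 with 1.61e-08, 6.32 ± 0.51 in P100 with 1.21e-09 and 3.95 ± 0.49 in S100 with 6.06e-07. The lysate values rest on 4, 6 and 5 counts.

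miR-10396a-5p, shorter by a base, had 1 count in the lysate libraries together. It reached 3443, 2027, 5641 and 5387 CPM in total exRNA, 1316, 1129, 968 and 1028 CPM in P40, 2193, 3013, 3547 and 4261 CPM in P100 and 421, 703 and 645 CPM in S100. No extracellular library overlapped lysate. Pooled over libraries, its counts relative to the scaled library totals were 885 times those of lysate in total exRNA (exact 95% counting interval 158 to 35014). They were 246 times those of lysate in P40 (43.0 to 9842), 714 times in P100 (127 to 28305) and 135 times in S100 (24.1 to 5345). The width of these intervals comes from the single lysate count, and they cover counting error only. miR-744-5p, a miRNA of chr17 with the seed of miR-10396a-5p, did not share this pattern: it stood at 516 ± 120.4 CPM in total exRNA (n = 4), 731 ± 213 in P40 (n = 4), 617 ± 359 in P100 (n = 4), 1343 ± 171 in S100 (n = 3) and 2054 ± 278 in lysate (SD, n = 3). It was lower than in lysate in total exRNA (edgeR adjusted p = 0.00117), P40 (adjusted p = 0.0164) and P100 (adjusted p = 0.00654) and was not called in S100 (adjusted p = 0.263).

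The 3p arms of miR-10396 had a different order, with P100 alone at the top. miR-10396a-3p stood at 469.5, 266, 848 and 1139 CPM in total exRNA, 501, 484, 449.5 and 316 CPM in P40, 4327, 5380.4, 3590.3 and 8015 CPM in P100, 82.2, 175 and 126 CPM in S100, and 0, 37.0 and 0 CPM in lysate. miR-10396b-3p stood at 1043, 399.5, 1475 and 1388 CPM in total exRNA, 1003, 1505, 277 and 791 CPM in P40, 6519.6, 8695, 6787 and 8015 CPM in P100, 139, 412 and 257 CPM in S100, and 0, 140.6 and 16.1 CPM in lysate. For both entries the lowest P100 library was above the highest library of every other group. The lysate level rests on replicate 2, which held all 5 counts of miR-10396a-3p and 19 of the 20 counts of miR-10396b-3p. Over lysate, miR-10396a-3p had a log2 fold change of 7.93 ± 0.75 in P100 (edgeR adjusted p = 1.88e-08), and its other 3 groups lay between 2.58 ± 0.74 in S100 (adjusted p = 0.00412) and 4.96 ± 0.72 in total exRNA (adjusted p = 1.20e-05). miR-10396b-3p had 6.67 ± 0.75 in P100 (adjusted p = 5.26e-07), and in S100, where the groups overlapped, 1.88 ± 0.69 (adjusted p = 0.0214). The S100 call of miR-10396b-3p was lost, with adjusted p = 0.0516, when only S100 and lysate were fitted.

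miR-663a, studied elsewhere as a tumour suppressor miRNA, was the most counted of the 8 entries. Its level was 5138, 1228, 8701 and 36709.7 CPM in total exRNA, 7209, 2687, 2974 and 2293 CPM in P40, 9305, 13257, 12916 and 30436 CPM in P100, 1499, 2555 and 1845 CPM in S100, and 34.9, 214.6 and 64.4 CPM in lysate. Replicate 4 of total exRNA and replicate 4 of P100 were each the highest library of their group by far, and all groups lay above lysate. Log2 fold changes over lysate were 6.66 ± 1.00 in total exRNA, 4.89 ± 0.94 in P40, 7.01 ± 1.01 in P100 and 3.95 ± 0.93 in S100, with edgeR's adjusted p between 1.61e-05 and 0.000926.

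miR-663b was not detected in lysate, with 0 of 260500 counts, which allows a share of up to 0.00115%. It had 1852, 947, 3042 and 6998 CPM in total exRNA, 313, 214.98, 311 and 1028 CPM in P40, 474, 775, 613 and 1623 CPM in P100 and 221, 204 and 178 CPM in S100. Folds over lysate were bounded with a floor of 3 counts over the lysate group, on pooled counts relative to the scaled library totals. Its level was at least 212-fold higher in total exRNA, 30.7-fold in P40, 57.9-fold in P100 and 15.2-fold in S100. By edgeR's adjusted p it was called higher in each group, with values of 6.04e-07 in total exRNA, 0.000131 in P40, 1.16e-05 in P100 and 0.000172 in S100.

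miR-3648 was the entry with the narrowest gap. It stood at 861, 474, 959 and 639 CPM in total exRNA, 501, 214.98, 173 and 316 CPM in P40, 1659.5, 473, 1269.7 and 1522 CPM in P100, 97.6, 208 and 57.7 CPM in S100, and 105, 148 and 113 CPM in lysate. Against lysate it was higher in total exRNA (log2 fold change 2.52 ± 0.58, edgeR adjusted p = 0.00161) and P100 (3.25 ± 0.60, adjusted p = 0.000191). P40 lay above lysate in every library but missed the threshold (1.20 ± 0.63, adjusted p = 0.157). In S100 the difference was -0.041 ± 0.59 (adjusted p = 0.962), close to the median of all tested miRNAs there (-0.040). With library size alone it was 0.18 and with DESeq2 0.43, where the median of all tested miRNAs moved alike, to 0.17 and 0.39.

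miR-3687, with 0 of 1235187 counts over the 18 libraries, could have made up at most 0.000243% of them. This limit, set at 3 counts, covers counting error only and holds only if the name was among those counted. The miRNA release is not given in the sources used here.

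**Figure D3:**
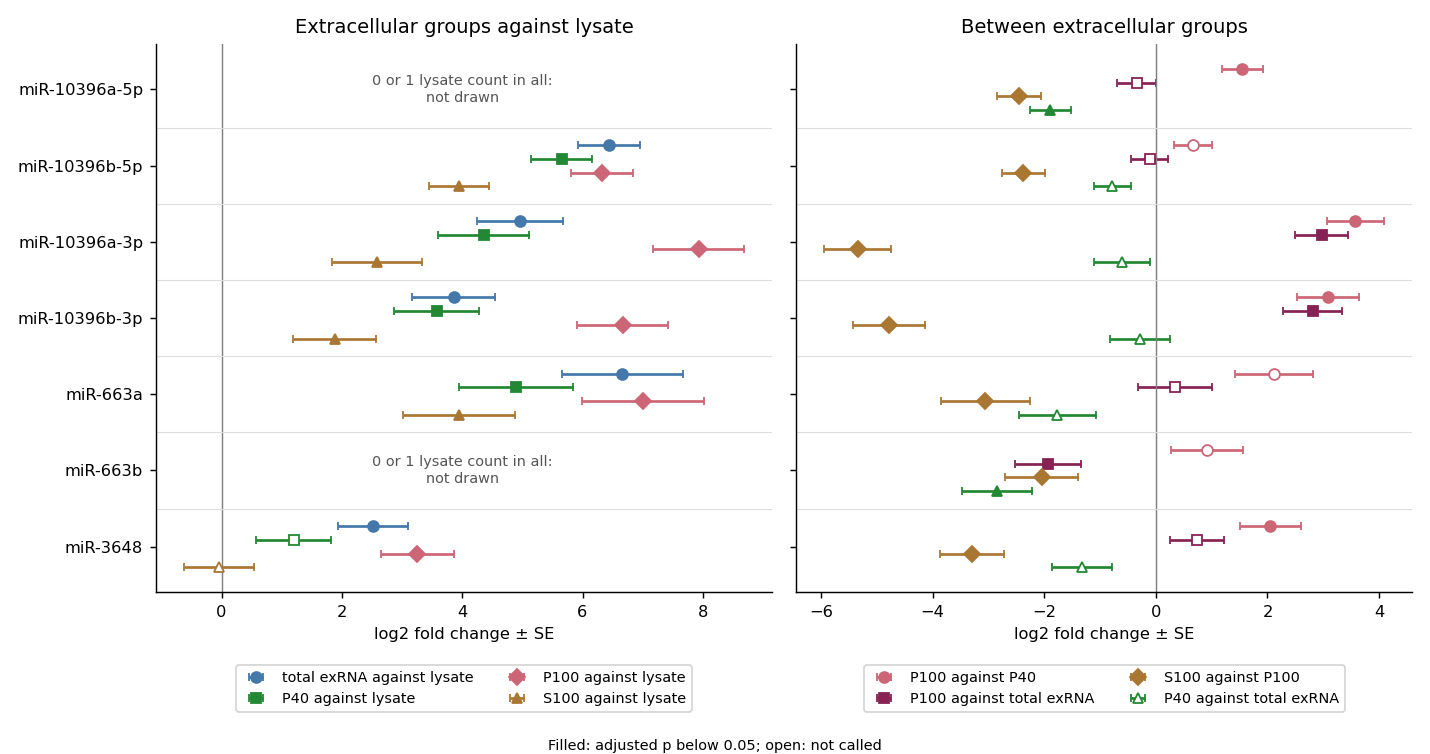
Log2 fold changes with SE from edgeR, extracellular groups against lysate on the left and comparisons between extracellular groups on the right; filled symbols have an adjusted p below 0.05. On the left, miR-10396a-5p and miR-663b are not drawn because their fitted fold depends on 1 and 0 lysate counts. On the right, the 3p arms of miR-10396 are the entries higher in P100 than in both P40 and total exRNA.

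Between the pellets, which share their RNA preparation, the 3p arms had the widest differences of the 7 tested entries. In P100 against P40, 4 of the 8 entries were called higher, where 2.2% of all tested miRNAs were, 5 in all. miR-10396a-3p had a log2 fold change of 3.58 ± 0.52 (edgeR adjusted p = 0.000105), miR-10396b-3p 3.09 ± 0.56 (adjusted p = 0.00109), miR-3648 2.05 ± 0.55 (adjusted p = 0.0291) and miR-10396a-5p 1.55 ± 0.37 (adjusted p = 0.0145). The 3p calls held when any 1 library was left out. Those of miR-10396a-5p and miR-3648 did not: without P100 replicate 3 their adjusted p were 0.0535 and 0.0723, without P100 replicate 4 they were 0.0535 and 0.0663, and without P40 replicate 2 they were 0.0512 and 0.0874. miR-3648 was also lost without P100 replicate 1 (adjusted p = 0.103), P40 replicate 3 (0.0756) or P40 replicate 4 (0.0524). With the a and b copies summed, the 5p arm had 0.92 (adjusted p = 0.119).

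The other 3 tested entries were not called between the pellets. miR-663a was higher in every P100 library than in any P40 library, with a log2 fold change of 2.11 ± 0.70, but its adjusted p was 0.0966. miR-10396b-5p had 0.67 ± 0.34 (adjusted p = 0.252) and miR-663b 0.92 ± 0.64 (adjusted p = 0.416), both by edgeR and both with overlapping groups. A p above the threshold does not show that their levels were equal. The median over the 7 tested entries was 2.05, against -0.18 over all tested miRNAs.

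The balance of the arms within a library does not depend on library scaling. 3p reads made up 13.7%, 10.2%, 14.1% and 15.7% of the miR-10396 counts in total exRNA, 23.8%, 28.5%, 11.1% and 20.9% in P40, 58.5%, 57.5%, 49.9% and 64.2% in P100, and 17.1%, 22.7% and 14.6% in S100. In P100 the lowest exact 95% bound of any library was 45.3%, and outside P100 the highest bound of any extracellular library was 37.0%. The groups' miR-10396 totals were 2336, 487, 1603 and 1373 counts in the order given. Lysate held 41 such counts, of which 25 were 3p, 24 of them in replicate 2, so no lysate balance can be given.

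The a copy held the smaller part of either arm in every group mean. It made up 37.6% ± 2.61 of the 5p counts in total exRNA (n = 4), 22.8% ± 4.50 in P40 (n = 4), 34.8% ± 8.99 in P100 (n = 4) and 34.5% ± 5.34 in S100 (SD, n = 3). Of the 3p counts it made up 38.1% ± 5.90, 37.0% ± 17.0, 40.7% ± 6.60 and 33.3% ± 3.73 in those groups. In lysate 1 of 16 5p counts and 5 of 25 3p counts were assigned to it. Since the copies differ only at their ends, these shares depend on how reads of either were assigned, which is not given in the sources used here.

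**Figure D4:**
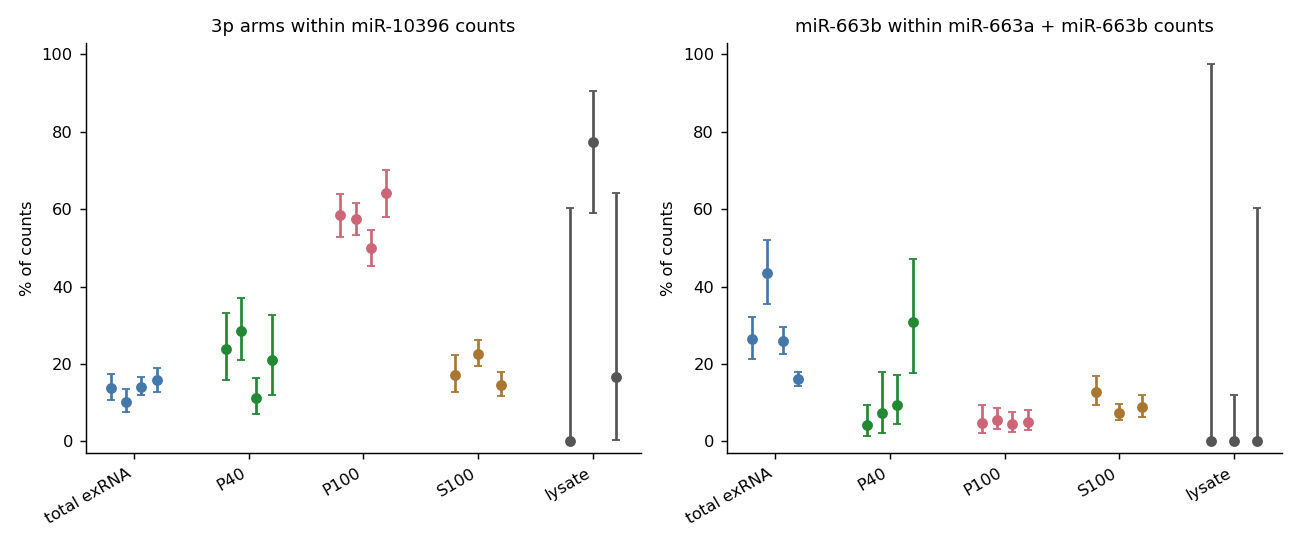
Share of 3p reads among miR-10396 counts (left) and of miR-663b among miR-663a plus miR-663b counts (right), in percent of counts per library with exact 95% intervals, in order of replicate. P100 libraries lie at 49.9% to 64.2% on the left, above all other extracellular libraries, and at 4.53% to 5.52% on the right.

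miR-663b and miR-663a did not keep a fixed ratio. miR-663b made up 26.5%, 43.5%, 25.9% and 16.0% of their joint counts in total exRNA, 4.17%, 7.41%, 9.47% and 31.0% in P40, 4.85%, 5.52%, 4.53% and 5.06% in P100, 12.8%, 7.39% and 8.81% in S100, and 0 of 34 counts in lysate. P100 was the most even group, total exRNA lay above P100 and S100 in every library, and P40 replicate 4 stood apart from the other P40 libraries. That library's share rests on 13 of 42 counts.

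Against total exRNA, P100 had 2 of the 8 entries higher, where 13.2% of all tested miRNAs were, and 1 lower, where 14.5% were. The higher ones were the 3p arms, miR-10396a-3p with a log2 fold change of 2.97 ± 0.48 (edgeR adjusted p = 0.000130) and miR-10396b-3p with 2.81 ± 0.53 (adjusted p = 0.000460). miR-663b was lower by -1.93 ± 0.59 (adjusted p = 0.0170), and that call was lost without total exRNA replicate 4 (-1.21, adjusted p = 0.128), P100 replicate 1 (adjusted p = 0.0563) or P100 replicate 3 (adjusted p = 0.0527). The remaining 4 tested entries lay between -0.35 and 0.73 and were not called.

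Against total exRNA, P40 had 2 of the 8 entries lower, where 6.17% of all tested miRNAs were. miR-10396a-5p was lower by -1.89 ± 0.36 (edgeR adjusted p = 0.00119), with no overlap between the groups, and miR-663b by -2.85 ± 0.62 (adjusted p = 0.00579), where P40 replicate 4 reached into the range of total exRNA. The other 5 tested entries lay between -1.77 and -0.28.

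S100 had the lowest mean level of the extracellular groups for each of the 7 listed entries. Against P100 all 7 were called lower, where 31.3% of all tested miRNAs were, and the groups did not overlap for any of them, which held for 32.6% of all tested miRNAs in that direction. The log2 fold change was -5.35 ± 0.60 for miR-10396a-3p (edgeR adjusted p = 1.40e-07) and -4.79 ± 0.65 for miR-10396b-3p (adjusted p = 2.94e-06), and lay between -3.30 and -2.05 for the other 5. miR-663b missed the threshold without S100 replicate 4 (-1.68, adjusted p = 0.0660). With no low-count filter, miR-663a (-2.33, adjusted p = 0.116) and miR-663b (-1.35, adjusted p = 0.0691) were not called. Against total exRNA all 7 were called lower, where 33.9% of all tested miRNAs were, with log2 fold changes of -3.98 to -1.98. There the call of miR-663a was lost with no low-count filter (adjusted p = 0.123) and rested on single libraries: without total exRNA replicate 4 it was -1.05 (adjusted p = 0.151), without S100 replicate 2 its adjusted p was 0.0643 and without S100 replicate 4 it was 0.0520. miR-10396b-3p was also lost there without S100 replicate 2 (-1.34, adjusted p = 0.0845) or S100 replicate 4 (-1.61, adjusted p = 0.0577).

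Against P40, S100 had 3 of the 8 entries lower, where 27.8% of all tested miRNAs were. These were miR-10396b-5p at -1.71 ± 0.38 (edgeR adjusted p = 0.000579), miR-10396a-3p at -1.77 ± 0.56 (adjusted p = 0.0102) and miR-10396b-3p at -1.70 ± 0.59 (adjusted p = 0.0195). With the replicate number as a block, miR-10396a-5p was called too (-1.02, adjusted p = 0.0337), which made 4. With no low-count filter none of the 3 was called: the adjusted p was 0.0754 for miR-10396b-5p, 0.185 for miR-10396a-3p and 0.174 for miR-10396b-3p. Without P40 replicate 2 or 4, or S100 replicate 2 or 4, miR-10396b-3p was not called (adjusted p 0.0566 to 0.217), and without P40 replicate 3, or S100 replicate 2 or 4, miR-10396a-3p was not (0.0633 to 0.124). The median shift of all tested miRNAs in this comparison was -0.30.

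The order of mean levels over the groups is a description, and many neighbours in it were not called apart. For miR-10396a-5p it was total exRNA, P100, P40, S100 and lysate, with total exRNA and P100 (adjusted p = 0.487 in edgeR) and P40 and S100 (adjusted p = 0.0541) not called apart. miR-10396b-5p had the same order, with total exRNA and P100 (adjusted p = 0.925 in edgeR) and P100 and P40 (adjusted p = 0.252) not called apart. For both 3p arms it was P100, total exRNA, P40, S100 and lysate, and only total exRNA and P40 were not called apart. miR-663a had that order too, but of its neighbours S100 and lysate alone were called apart. For miR-663b it was total exRNA, P100, P40, S100 and lysate, with P100 and P40 (adjusted p = 0.416 in edgeR) and P40 and S100 (adjusted p = 0.161) not called apart. For miR-3648 no neighbour pair in the order P100, total exRNA, P40, lysate and S100 was called apart.

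The tested miRNAs most like each entry in profile were taken by the root mean square difference between centred log2 CPM means of the 5 groups. miR-9901 was nearest to miR-10396b-5p (0.21 on the log2 scale), miR-10396a-5p (0.52), miR-663a (0.51) and miR-663b (0.68). miR-10394-3p was nearest to miR-10396a-3p (0.85) and miR-10396b-3p (0.78), and miR-4497 to miR-3648 (0.50). miR-4466 was among the 3 nearest of every entry but miR-3648. miR-9901 (85.7% G+C), miR-4466 (94.4%) and miR-4497 (82.4%) are among the G+C-rich miRNAs described below, and miR-10394-3p has 73.9%. Neither miR-4466 nor miR-10394-3p had a lysate count. miR-9901 stood at 2719 ± 1303 CPM in total exRNA (n = 4), 1546 ± 515 in P40 (n = 4), 2759 ± 224 in P100 (n = 4), 616 ± 223.1 in S100 (n = 3) and 38.8 ± 40.8 in lysate (SD, n = 3). This likeness is a description over 5 group means.

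Other miRNA names that touch rRNA are miR-10401-5p, miR-10401-3p, miR-6724-5p, miR-7641 and miR-6087. Of these 5, 3 had counts and 2 were tested. miR-10401-5p was higher than in lysate in total exRNA (log2 fold change 6.00 ± 1.12, edgeR adjusted p = 0.000277), P40 (3.57 ± 1.13, adjusted p = 0.0197) and P100 (4.04 ± 1.12, adjusted p = 0.00787) and not called in S100 (1.25 ± 1.12, adjusted p = 0.351). miR-10401-3p was not called in any of the 4 (0.46 to 2.61). miR-6724-5p, not tested, had 9 counts in total exRNA, 0 in P40, 3 in P100, 31 in S100 and 35 in lysate, of which 23 were in 1 library. Its mean levels were 51.8 CPM in total exRNA, 0 in P40, 46.9 in P100, 51.7 in S100 and 297 in lysate.

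Names on other structural RNAs (tRNA, snoRNA, mitochondrial rRNA and the like) went both ways against lysate. Of 17, 14 had counts and 7 were tested. Against lysate, 3 were higher and 1 lower in total exRNA, 4 and 2 in P40, 5 and 2 in P100, and 1 and 5 in S100. Over all tested miRNAs, 18.9%, 13.7%, 16.7% and 32.2% were higher than in lysate. The shares of all tested miRNAs lower than in lysate are not given here, so the counts of lower names have no such comparison. None of the 7 was called between P100 and P40, where only 2.2% of all tested miRNAs were called higher. In S100, 5 were lower than in P100 and 5 lower than in P40, with 0 higher, where 31.3% and 27.8% of all tested miRNAs were lower. miR-4485-3p, whose sequence matches mitochondrial rRNA, was higher in P100 (3.70 ± 0.63, edgeR adjusted p = 0.000101) and lower in S100 (-5.68 ± 0.76, adjusted p = 3.10e-06) than in lysate. miR-4454, which resembles a tRNA, was lower in both P100 (-3.58 ± 0.57, adjusted p = 4.56e-05) and S100 (-7.09 ± 0.74, adjusted p = 1.17e-07).

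The 7 tested entries are rich in G+C, and so are some other tested miRNAs. Of the 10 other tested miRNAs with at least 75% G+C, 7 were higher than in lysate in total exRNA and none lower, 5 and none in P40, 6 and none in P100, and 4 and 3 in S100, where 18.9%, 13.7%, 16.7% and 32.2% of all tested miRNAs were higher. Their median log2 fold change over lysate was 3.26 in total exRNA, 1.64 in P40, 2.13 in P100 and 0.22 in S100. Between P100 and P40 none of the 10 was called, with a median of 0.63. Only 2.2% of all tested miRNAs were called higher there, 5 in all, of which 4 were listed entries. In S100, 7 of the 10 were lower and 1 higher than in P100 (median -2.60). Against total exRNA 8 were lower and 1 higher (-3.29), and against P40 7 were lower and 2 higher (-2.43). Of all tested miRNAs, 31.3%, 33.9% and 27.8% were lower in these 3 comparisons. The shares of all tested miRNAs higher in them, or lower than in lysate, are not given here, so those counts have no such comparison. The part of base composition in the levels of the 8 entries was not tested.

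**Figure D5:**
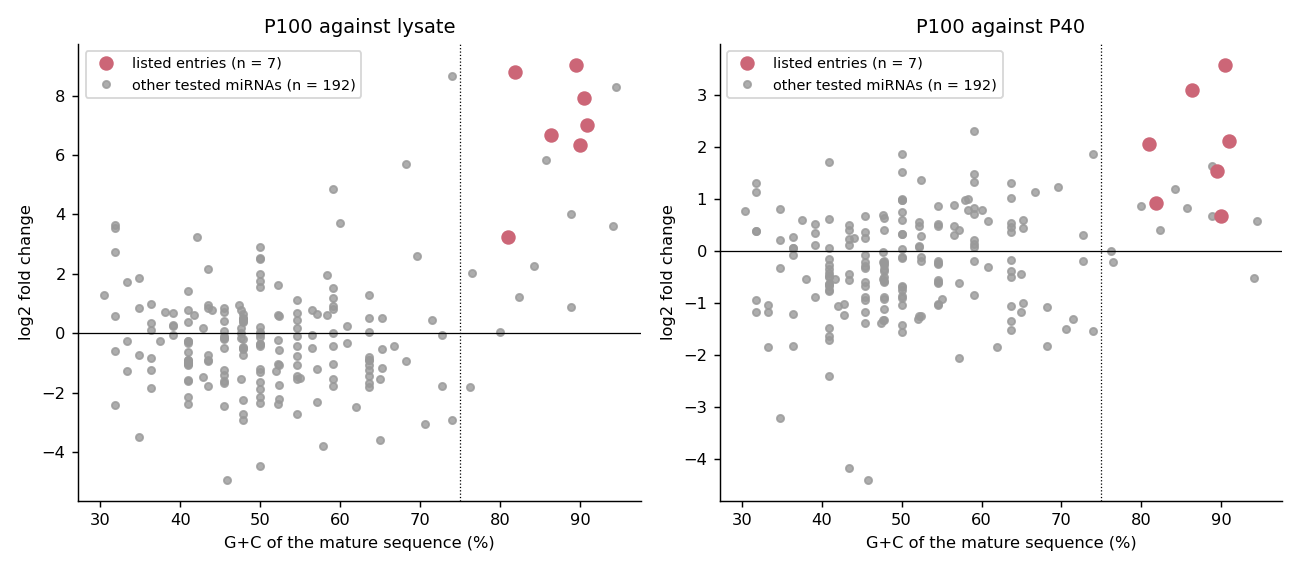
Log2 fold change from edgeR against G+C of the mature sequence for the 7 tested entries and the other tested miRNAs with a RefSeq sequence, P100 against lysate on the left and P100 against P40 on the right; the dotted line marks 75%. Most miRNAs above the line lie above 0 on the left, where values of miRNAs with no lysate count depend on the prior count.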

How the data were processed

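Mature miRNA counts were analysed in 18 of 19 libraries. The authors deposited raw counts per mature miRNA, 1 list per library, with names of 0 counts left out; an absent name was taken as 0. The submitters' processing notes name cutadapt 1.16, Bowtie2, FastQC and the build GRCh38; read assignment between like sequences and the miRNA release are not given in the sources used here. Per the labels' protocols, the kit was RealSeq-AC and reads were 50 bases, without molecular identifiers, so intervals cover counting error only. Libraries under 100 detected miRNAs were left out (S100 replicate 1).

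Counts were fitted in R 4.3.3 with edgeR 4.0.16 (filterByExpr, minimum count 10 and total 15; TMM; 1 robust quasi-likelihood model over 5 groups; 10 comparisons; Benjamini-Hochberg over 227 miRNAs, which held 98.5% to 99.1% of counts). SE were derived from F. The common biological coefficient of variation was 0.419. Fold changes against 0 counts used a floor of 3 counts over the group. Alternatives were library size alone, DESeq2 1.42.0, no filter, the replicate block, the compared groups alone, the entries of a family summed per arm (a with b), and each library left out. The labels' batch number equals the replicate number and pairs libraries; deviations of same-numbered libraries had a mean correlation of -0.03 over 32 pairs. Replicates differed by more than counting noise in every pair (chi-square per degree of freedom 4.32 to 49.8).

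The members, the miRNA lists and the naming rule (all 8 entries, the 3 miRNAs nearest to each in profile, and the listed names) were chosen with earlier results of these data known. Sequences, positions and G+C are from RefSeq on GRCh38.p14; 199 of the 227 tested miRNAs had a sequence.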

Additional observations from a re-analysis of the deposited data

Results flagged for a closer look

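Among 42 sets of 4 libraries checked, 3 had 1 library apart from the other 3 by more than Dixon's critical value for 4 samples at 95%, where chance gives about 2.1, and all 3 were in P40. miR-663a stood at 7209 CPM in P40 replicate 1, against 2293 to 2974 CPM in the other P40 libraries. The same library had 50.2% of its counts of the 8 entries in miR-663a, against 25.7% to 29.8% in the others. miR-663b stood at 1028 CPM in P40 replicate 4, on 13 counts, against 214.98 to 313 CPM in the others.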

How the results depend on the processing

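Of the 70 fold changes tested, 52 were called, and 41 of these kept direction and call under every alternative run in which the entry was tested. Counts of called entries that moved by over 1.5 times were P100 against P40 (4; 2 with no low-count filter; 2 to 4 with a library left out, 2 without replicate 3 or 4 of P100 or replicate 2 of P40), S100 against P40 (3; 0 with no filter; 1 to 3 with a library left out, 1 without S100 replicate 2 or 4) and P40 against total exRNA (2; 4 with DESeq2; 4 with a and b summed, which are 2 sums, miR-10396-5p and miR-663, counted for both of their entries; 2 to 3 with a library left out). With a library left out, the counts were 6 to 7 for S100 against P100, 5 to 7 for S100 against total exRNA and 2 to 3 for P100 against total exRNA, and did not change against lysate. The replicate block changed 1 call, which made 4 in S100 against P40. miR-663a in P100 against P40 was called with DESeq2 (2.15, adjusted p = 0.0285) and when these groups were fitted alone (2.04, adjusted p = 0.00582). Fitted alone, P40 with lysate and S100 with P40 left 5 of the entries above the filter and P100 with P40 left 6.

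Some signs of uncalled results turned with the common shift of all miRNAs or a library left out: miR-3648 in S100 against lysate (0.18 with library size alone, 0.43 with DESeq2 and 0.66 with no filter, where the median of all tested miRNAs moved alike to 0.17, 0.39 and 0.66, and, with a library left out, -0.33 to 0.74, above 0 in 5 of 6 fits), miR-10396b-5p in P100 against total exRNA (-0.26 to 0.021 with a library left out, 0.021 without total exRNA replicate 3 and 0.018 without replicate 4) and miR-663a in that comparison (-0.13 without P100 replicate 4, up to 1.70 without total exRNA replicate 4). miR-663b there, the only called result to turn, had 0.045 when summed with miR-663a, from which its sequence differs. Without the filter the median of all tested miRNAs moved in S100 comparisons, for example to 0.66 against lysate and to 0.37 against P40; the cause of the lost calls was not tested. Precision is limited by the spread between libraries, such as total exRNA replicate 4 for miR-663a, and by low counts, among them the lysate counts (105 in all for the 8 entries) and the P40 counts of miR-663b and miR-3648 (31 and 21).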
